A study of Mus musculus with 20 samples.

Results

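The genes described here are 9 Sox transcription factors of neural and mesenchymal cells: Sox1, Sox2, Sox4, Sox5, Sox6, Sox8, Sox9, Sox10 and Sox11. They were chosen by name, and for each the window was the gene body plus 10 kb on each side in NCBIM37 (mm9) coordinates. These are 9 of the 22130 windows of protein-coding genes. All 9 were located, and all but Sox1, which was placed by its RefSeq promoter, are named in the annotation. What was measured in each window is the number of 5-formylcytosine (5fC) peaks and the percent of bases under them, in each pull-down library.

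Libraries came from E11.5 mouse embryos of 2 genotypes, wild-type (WT) and Tdg null. In null embryos a neomycin cassette replaces the part of Tdg that codes for the catalytic domain, and crosses were between heterozygous parents. Hindbrain was profiled in 4 WT (embryos 2A8, O3, Q3 and Z3) and 4 null embryos (2A2, O4, Q2 and Z1), with 1 of each genotype from each of litters A, O, Q and Z. Heart, carcass and liver all came from 4 other embryos, WT i6 and i9 and null i1 and i5, with i1 and i6 sharing 1 litter label and i5 and i9 another, so values from heart, carcass and liver share embryos. Whole dissected tissues were used, and a difference in a window may come from fewer cells of a type or from less 5fC per cell, which cannot be told apart. The peak positions carry no expression values, and the deletion could not be checked from them.

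Sox proteins bind DNA through an HMG box and fall into groups with shared roles. Sox1 and Sox2 (SoxB1) keep neural progenitors in their state, Sox4 and Sox11 (SoxC) act in differentiating neurons and in mesenchyme, Sox5 and Sox6 (SoxD) act with Sox9 in cartilage formation and in the nervous system, and Sox8, Sox9 and Sox10 (SoxE) act in the neural crest, glia and cartilage. 5fC arises when TET enzymes oxidise methylated cytosine, and TDG removes it, after which base excision repair restores an unmodified cytosine.

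Null libraries held 101344 to 254319 peaks over 2.68% to 8.09% of the ungapped genome, and WT libraries 1563 to 42013 peaks over 0.0349% to 0.939%. The null liver of embryo i5 held 228 peaks and no base under a peak in any of the 9 windows; it was set apart, which leaves 19 libraries and 1 null liver. Among null libraries, the windows of 10 heart marker genes had a median log2 coverage relative to the genome of 2.13 in heart and of -0.0942 in hindbrain, while the 9 matched liver and blood markers had a median of -0.191 in liver and of -0.0916 in hindbrain, so the liver label was not borne out by its own list. Hindbrain markers stood at 0.688 in hindbrain, 0.346 in carcass and -3.01 in liver, with 4 of the 9 matched at 0 in liver. Carcass markers stood at 1.0 in hindbrain and 0.762 in carcass, and heart markers at 1.06 in liver. The peak positions used here hold no read counts, so library depth is unknown here.

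Over the 9 windows together, null libraries held between 171 and 390 peaks. The null hindbrains held 181, 171, 211 and 195 peaks in 2A2, O4, Q2 and Z1, over 9.38%, 7.77%, 9.39% and 9.68% of the windows. The null hearts held 390 and 181 peaks over 17.3% and 6.64%, the null carcasses 298 and 346 over 16.5% and 20.2%, and the null liver 175 over 7.68%. Embryo i1 had the higher coverage of the 2 null hearts and embryo i5 the higher of the 2 null carcasses. WT hindbrains held 1, 28, 43 and 1 peaks in 2A8, O3, Q3 and Z3, WT hearts 3 and 6, WT carcasses 65 and 53, and WT livers 29 and 3. Nearly all of these WT peaks lay in Sox5 and Sox6: outside these 2 genes there was 1 peak in a WT hindbrain, 2 in each WT carcass and none in WT heart or liver. The windows of these 2 genes are also by far the longest, 973.6 and 587.4 kb, against 22.01 to 29.58 kb for the others. Sox1, Sox2, Sox8 and Sox10 had no base under a peak in any of the 10 WT libraries, which was also so for 38.2% of all protein-coding windows.

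**Figure D1:**
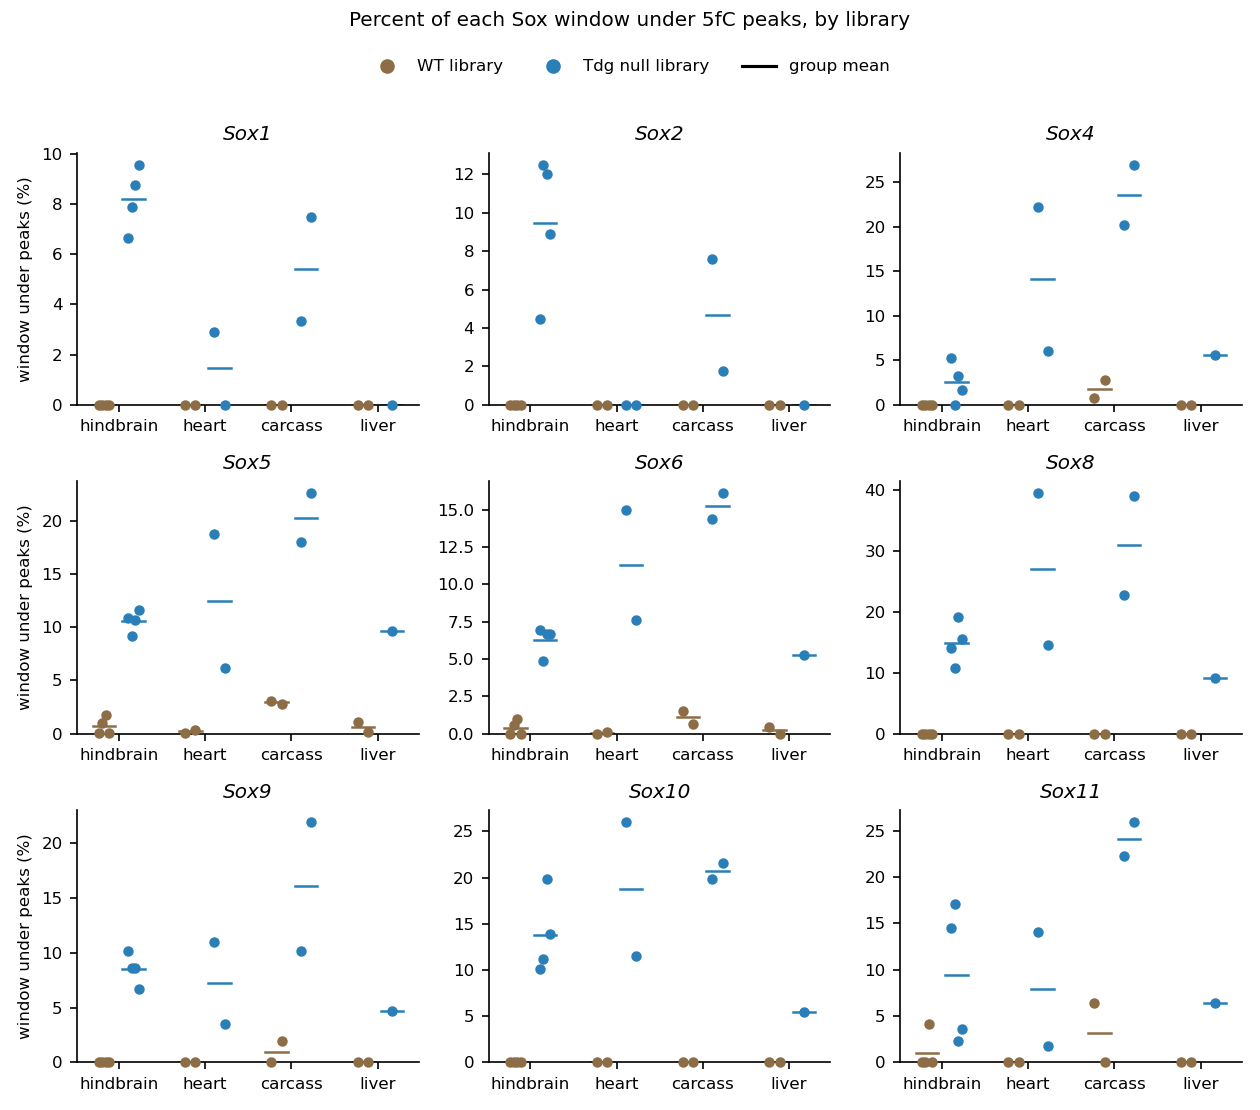
Percent of each Sox window (gene body plus 10 kb on each side, vertical axis) under 5fC peaks in every library, by tissue; brown points are WT and blue points Tdg null libraries, and a bar is the group mean. Null hindbrains of Sox1 sit between 6.66% and 9.57% with all WT libraries at 0, while both null hearts and the null liver of Sox2 sit at 0.

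The first comparison asks which windows gain peaks when TDG is lost, and in hindbrain the group mean was higher in null for all 9. Sox8, a SoxE gene of neural crest and glia, went from 0 in each WT hindbrain to 14.0%, 10.7%, 19.2% and 15.6% in the null ones, and Sox10, which specifies neural crest and later glia, from 0 to 10.1%, 11.2%, 19.9% and 13.9%. The null libraries stood above every WT library in both windows. By limma on log2(percent + 0.1) across windows, 9 of 9 members were higher in null hindbrain, against 95.6% of the 15644 windows tested, and none was higher in WT, against 0.0511%. Adjusted p-values ran from 9.86e-09 for Sox1 to 0.0139 for Sox4. The median log2 difference was 6.37 over the members and 4.76 over all windows tested, values that depend on the pseudocount of 0.1 where WT libraries are at 0. A two-sided exact permutation test of 4 against 4 gave p = 0.0286, the smallest it allows, for 7 members. After adjustment that test called these 7, and 13605 of all 15644 windows tested. The exact permutation test gave p = 0.143 for Sox4 and p = 0.0857 for Sox11, whose null and WT values overlap. In litter O, Sox4 was at 0 in both genotypes, and in litter Q, Sox11 was lower in null (2.27%) than in WT (4.09%). With coverage taken relative to that of the whole library, 5 of 9 members were called, and Sox4, Sox5, Sox6 and Sox11 were not (limma adjusted p from 0.456 to 0.919). With peaks of at least 600 bp only, Sox4 (limma adjusted p = 0.137) and Sox11 (0.149) were not called, and with the gene body alone Sox4 (0.399) and Sox8 (0.152) were not. Sox8 was not called on the gene body alone in carcass either (0.462).

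In heart 7 of the 8 members tested were higher in null (limma, against 84.7% of windows tested; none higher in WT, against 0.335%). Sox1 was not called (adjusted p = 0.396), with 2.91% in null heart i1 and 0 in null heart i5. Without i5 it was called, on a fit in which both WT hearts at 0 and the lone null heart leave no spread between libraries. Sox2, at 0 in all 4 hearts, fell under the filter on low coverage. With the gene body alone, Sox4 and Sox9 were not called in heart (limma adjusted p = 0.3945 for each). In carcass 7 of 9 were higher in null (limma, against 67.6%; none higher in WT, against 0.715%), and Sox9 (adjusted p = 0.103) and Sox11 (adjusted p = 0.176) were not called. Sox9 in carcass was called with a pseudocount of 1 (limma adjusted p = 0.0357), with peaks of at least 600 bp only (0.00522) and with the gene body alone (0.0018). In both windows 1 WT carcass held a peak: 1.96% of Sox9 in i9 and 6.36% of Sox11 in i6. Left out in turn, either null heart ended the calls of Sox5 (limma adjusted p = 0.151 without i1 and 0.0971 without i5) and Sox6 (0.0946 and 0.0703) in heart, either null carcass those of Sox4 (0.172 and 0.217) and Sox6 (0.110 and 0.132), and either WT carcass that of Sox2 (0.0742 and 0.0770); without i9, Sox9 was called (0.0277), and without i6 or i9 so was Sox11 (0.0199 and 0.0317). Relative to the whole library's coverage, 3 members were called in carcass, Sox1, Sox8 and Sox10, and 5 in heart, where the calls of Sox5 (limma adjusted p = 0.408) and Sox11 (0.289) were lost. In liver, with 1 null library, no genotype test was made.

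The tissue comparisons ask where the null windows differ between tissues once each library's own coverage of the genome is taken into account. The 3 comparisons share null libraries and one fit. Null hindbrain against null heart gave 4 members higher in hindbrain, Sox1, Sox2, Sox5 and Sox9 (limma, 4 of 9 against 10.5% of 17992 windows), and none higher in heart, against 15.0%. Null hindbrain against null carcass gave none in either direction (limma, against 4.77% higher in hindbrain and 1.12% higher in carcass), with 3 members, Sox2, Sox4 and Sox6, at an unadjusted p under 0.05. The share of all windows under that unadjusted level is not given, so the count is no result about the members. Null heart against null carcass gave 2 lower in heart, Sox2 and Sox5 (limma, against 6.94%), and none higher, against 20.7%. With 1 library left out, members called ran from 2 to 4 in hindbrain against heart and from 0 to 3 in heart against carcass. The gene body alone left 1 and 0. The median log2 difference over the 9 members was 0.65 in hindbrain against heart, where that over all windows was -0.25, -0.01 in hindbrain against carcass (0.29 over all windows) and -0.77 in heart against carcass (0.52 over all windows).

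**Figure D2:**
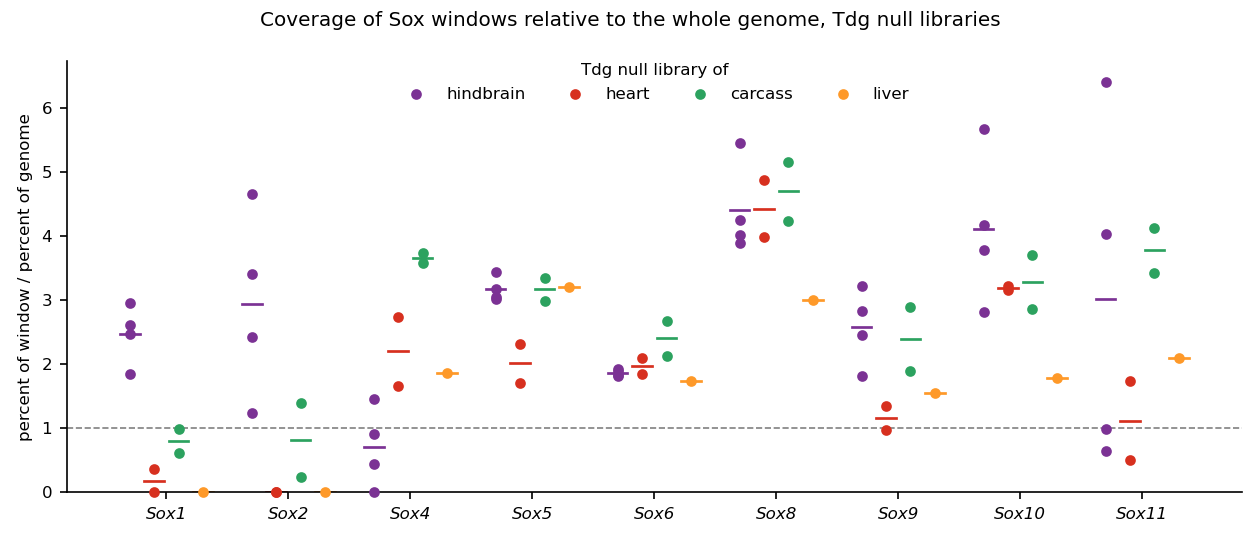
Percent of each Sox window under peaks divided by the percent of the genome under peaks in the same Tdg null library (vertical axis, a ratio; dashed line at 1), by gene and coloured by tissue; points are libraries and bars are group means. Sox1 and Sox2 have hindbrain means of 2.47 and 2.94 and heart means of 0.18 and 0, and Sox8 lies between 3.01 and 5.46 in every library.

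Sox1 (chr8:12395519-12399555, plus strand), a single-exon gene of neural progenitors, was covered in null hindbrain, in both null carcasses and in 1 null heart. Its window was under peaks for 6.66%, 7.90%, 8.74% and 9.57% in null hindbrains 2A2, O4, Q2 and Z1, 2.91% and 0 in null hearts i1 and i5, 3.33% and 7.49% in null carcasses i1 and i5, and 0 in the null liver. Hindbrain and heart did not overlap, and neither did hindbrain and liver, while null carcass i5 came within the hindbrain values. Relative to the genome, the log2 difference of hindbrain over heart was 4.60 ± 0.92 (SE; n = 4 and 2; limma adjusted p = 0.0124), higher in 4 of 4 hindbrains, a size that depends on the pseudocount since 1 heart is at 0. It was 6.49 without null heart i1 and 2.71 without i5. Counted as peaks per 100 kb it missed the threshold (adjusted p = 0.0533), as it did with the null liver of i5 added (0.0623). Against carcass the adjusted p was 0.317, and leaving out null heart i1 or i5 brought it to 0.0498 or 0.0351, and a pseudocount of 1 to 0.0391.

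All Sox1 peaks lay downstream of the gene, and none lay in the gene or upstream of it. The region from 7.4 to 9.0 kb after the gene start was under peaks in each of the 4 null hindbrains, and a second region, 10.1 to 11.7 kb after it, was under peaks in 3 null hindbrains (O4, Q2 and Z1), null heart i1 and both null carcasses. Within the first, 800 bp (chr8:12403001-12403800) were under peaks of all 4 null hindbrains and of no other null library, the longest such stretch in the 9 windows. The peak of null carcass i5 in this region began where the stretch ended. The annotated gene Gm5607 spans this part of the window, and no base of the stretch lies in a CpG island. Below are the middle 300 bases of that stretch (chr8:12403251-12403550) and the 250 bases before the Sox1 gene start (chr8:12395269-12395518), both from NCBIM37 on the plus strand with CpG in capitals. They show a place where hindbrain peaks lay and one where none lay: the first holds 2 of the 11 CpG of the 800-bp stretch (1.38 per 100 bp over the whole stretch), and the second holds 29 and had no base under a peak in any library.
Sox1 hindbrain stretch: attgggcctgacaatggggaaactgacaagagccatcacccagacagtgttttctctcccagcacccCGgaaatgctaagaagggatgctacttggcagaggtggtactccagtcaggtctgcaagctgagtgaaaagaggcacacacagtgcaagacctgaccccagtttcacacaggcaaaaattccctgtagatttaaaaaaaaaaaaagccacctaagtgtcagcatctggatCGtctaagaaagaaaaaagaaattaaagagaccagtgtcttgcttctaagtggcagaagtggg
Sox1 before the gene start: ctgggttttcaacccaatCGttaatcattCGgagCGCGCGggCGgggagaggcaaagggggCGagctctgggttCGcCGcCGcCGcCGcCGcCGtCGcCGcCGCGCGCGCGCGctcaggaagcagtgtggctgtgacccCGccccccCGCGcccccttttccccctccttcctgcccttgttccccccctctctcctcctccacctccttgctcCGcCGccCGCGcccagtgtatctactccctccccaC

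Sox2 (chr3:34548927-34551383, plus strand), which keeps neural and other progenitors, had peaks in null hindbrain and carcass and none elsewhere. The window was covered for 4.45%, 12.5%, 12.0% and 8.91% in null hindbrains 2A2, O4, Q2 and Z1 and for 7.57% and 1.78% in null carcasses i1 and i5. Both null hearts and the null liver were listed at 0, as were all 10 WT libraries. The difference from heart was called against both hindbrain (limma adjusted p = 0.0025) and carcass (adjusted p = 0.0117), and since heart is at 0 no fold is given. Hindbrain against heart remained called under each alternative that could be run, whereas heart against carcass was lost without null carcass i1 (adjusted p = 0.0576), with a pseudocount of 1 (0.0523), with peaks of at least 600 bp only (0.360) and with the null liver of i5 added (0.0692). Peaks lay on both sides of the gene and none in it. Upstream, 5.4 to 6.9 kb before the gene start, peaks were in 4 null hindbrains and null carcass i1, and downstream a peak from 7.9 to 9.4 kb after it had identical edges in null hindbrains O4, Q2 and Z1, with shorter peaks inside it in both null carcasses. The noncoding gene Sox2ot spans the window.

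**Figure D3:**
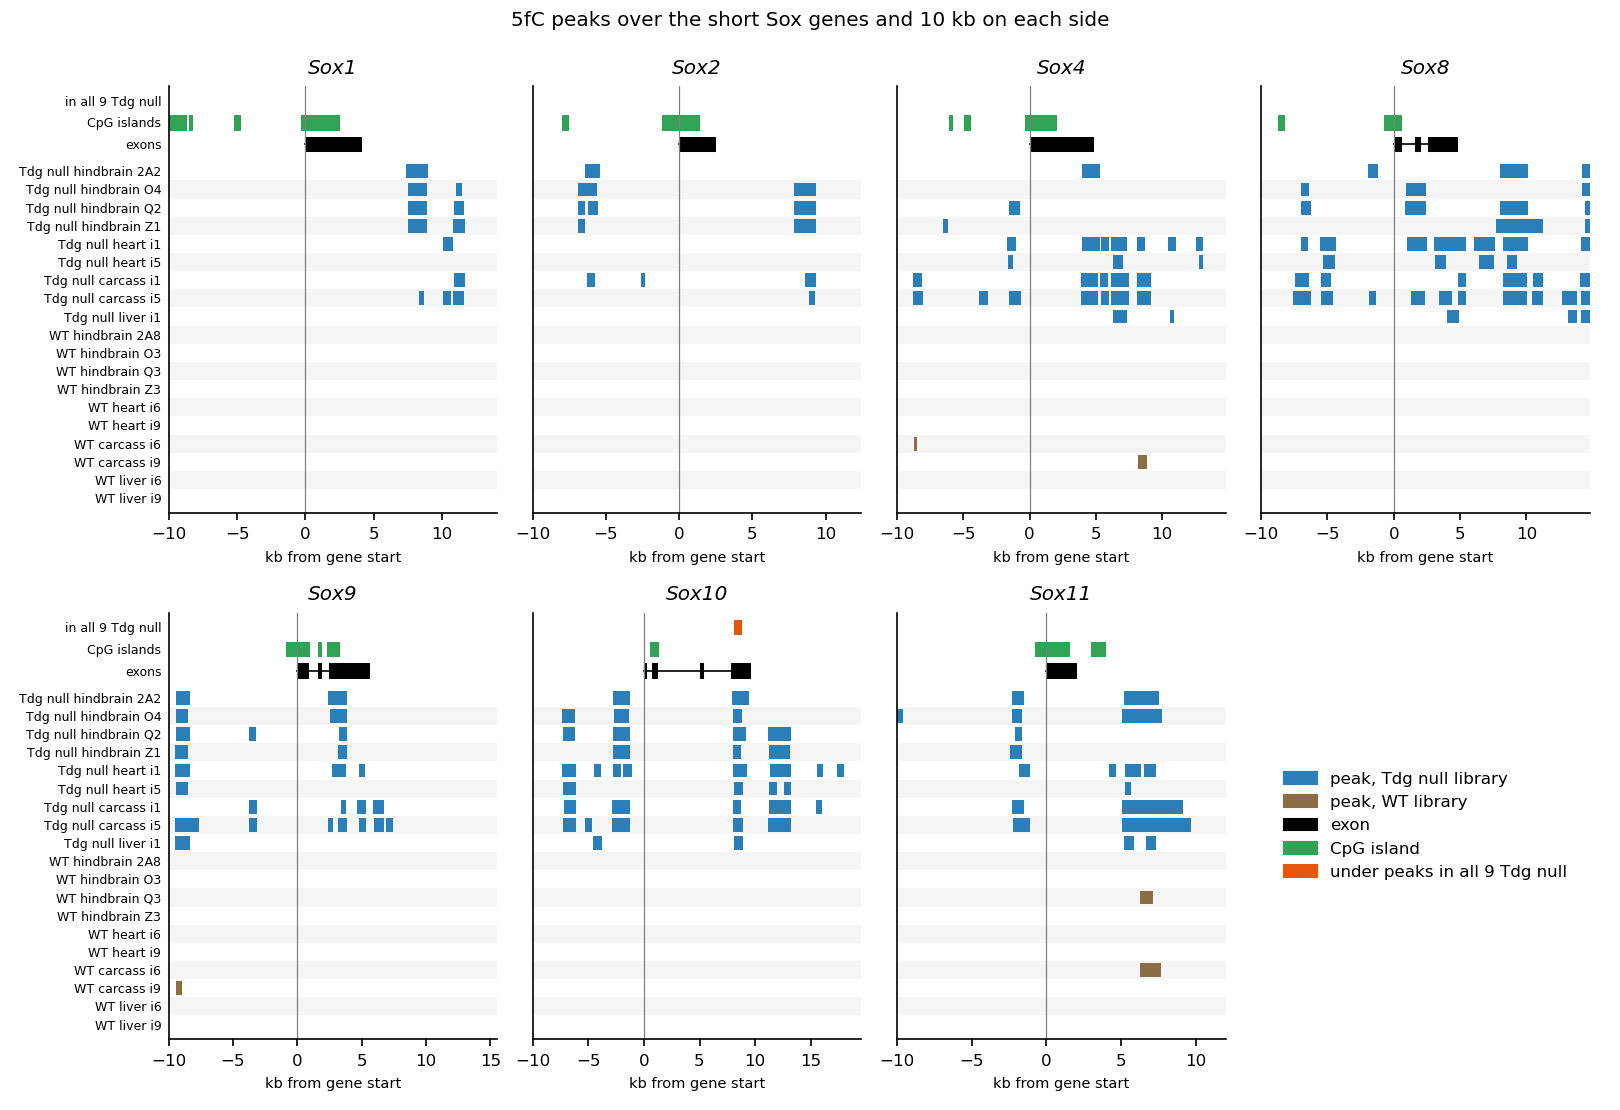
Positions of 5fC peaks in the windows of the 7 short Sox genes, as distance from the gene start in the direction of transcription (kb, horizontal axis), with 1 row per library; exons are black, CpG islands green, null peaks blue, WT peaks brown, and orange marks bases under peaks in all 9 Tdg null libraries. Islands over the gene starts are free of peaks, and only Sox10 has an orange stretch, 8.42 kb after its start.

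Sox4 and Sox11, the SoxC genes, varied widely among null hindbrains. Sox4 (chr13:29040788-29045582, minus strand) was covered for 5.24%, 0, 3.23% and 1.61% in null hindbrains 2A2, O4, Q2 and Z1, against 22.2% and 6.05% in null hearts i1 and i5, 20.2% and 27.0% in null carcasses i1 and i5 and 5.65% in the null liver. Every null hindbrain lay below both null hearts and both null carcasses in this percent. On the relative scale hindbrain against heart (limma adjusted p = 0.198) and hindbrain against carcass (adjusted p = 0.177) were not called, though with a pseudocount of 1 the latter was (0.0391). Its null carcasses had a mean ratio to the genome of 3.66, at the 97.0th percentile of all windows, and its null hindbrains one of 0.704, at the 46th. Carcass peaks lay 3.9 to 5.2 kb after the gene start, over the end of the single exon, and then at 5.3 to 6.0, 6.2 to 7.5 and 8.1 to 9.2 kb, each of them in both null carcasses and, in part, in null heart i1. Null hindbrain 2A2 also had a peak in the first of these regions, and null heart i5 and the null liver in the third. Both null carcasses and WT carcass i6 had a peak between 8.0 and 8.8 kb before the gene start.

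Sox11 (chr12:28025562-28027574, minus strand) was covered for 14.5%, 17.1%, 2.27% and 3.63% in null hindbrains 2A2, O4, Q2 and Z1. It stood at 14.1% and 1.82% in null hearts i1 and i5, 22.3% and 25.9% in null carcasses i1 and i5 and 6.36% in the null liver. In percent, hindbrains and hearts overlapped, and both carcasses lay above them. The hindbrains differed in 1 region: a peak from about 5.1 to 7.8 kb after the gene start was in 2A2 and O4 and not in Q2 or Z1, while a peak 1.5 to 2.4 kb before the start was in all 4. The same downstream region held the longer carcass peaks (5.1 to 9.7 kb) and the Sox11 peaks of WT hindbrain Q3 (4.09% of the window) and WT carcass i6 (6.36%). None of the 3 tissue comparisons was called for Sox11 (limma adjusted p = 0.410, 0.590 and 0.207).

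Of the SoxE genes, Sox8 and Sox10 were among the most covered windows of the genome in null hindbrain, Sox10 with a mean ratio of 4.11 at the 98.3rd percentile. Sox8 (chr17:25702837-25707631, minus strand) was under peaks for 39.4% and 14.5% in null hearts i1 and i5, 22.8% and 39.0% in null carcasses i1 and i5 and 9.13% in the null liver, beside the hindbrain values above. Its mean ratio to the genome was 4.40 in null hindbrain, 4.43 in heart, 4.70 in carcass and 3.01 in liver, at the 98.9th, 95.4th, 98.9th and 88.9th percentiles of all windows. In percent both carcasses lay above all hindbrains, while in the ratio to the genome hindbrains, hearts and carcasses overlapped, and no tissue comparison was called (limma adjusted p = 0.925, 0.737 and 0.779). A peak from about 8.2 to 10 kb after the gene start, past the 3' end of Sox8, was in 3 null hindbrains, both null hearts and both null carcasses, and the far end of the window was under peaks in 8 of 9 null libraries. In null hindbrains the mean cover was 23.9% downstream of Sox8, 5.25% upstream, 5.63% in its exons and 35.7% in its introns. The window also holds the protein-coding gene Lmf1 and the noncoding gene 2810468N07Rik.

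Sox9 (chr11:112643538-112649074, plus strand), the regulator of cartilage and of neural crest, was covered for 10.2%, 8.61%, 8.61% and 6.66% in null hindbrains 2A2, O4, Q2 and Z1. It was covered for 11.0% and 3.52% in null hearts i1 and i5, 10.2% and 21.9% in null carcasses i1 and i5, and 4.70% in the null liver. The percents of hindbrain and heart overlap, and the ratios to the genome do not: 1.81 to 3.22 in hindbrain against 0.968 and 1.35 in heart. The log2 difference of hindbrain over heart on that scale was 1.12 ± 0.29 (SE; limma adjusted p = 0.0288). It was lost without null hindbrain 2A2 (adjusted p = 0.0556), O4 (0.0589) or Q2 (0.0588), without null heart i5 (0.185), with the percent taken as it is (0.532), with the gene body alone (0.155), as peaks per 100 kb (0.154) and with the null liver of i5 added (0.0753). Heart against carcass stood at an adjusted p of 0.0565 and at 0.0494 with litter as a random block. A peak 8.3 to 9.5 kb before the gene start was in 8 of 9 null libraries, all but null carcass i1, and in WT carcass i9, and 1 at about 2.4 to 3.9 kb after it, over the last exon, was in 7.

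Sox10 (chr15:78985343-78994920, minus strand) stood at 26.0% and 11.5% in null hearts i1 and i5, 19.9% and 21.6% in null carcasses i1 and i5 and 5.41% in the null liver. No tissue comparison was called (limma adjusted p = 0.398, 0.548 and 0.943), and the ratios to the genome of hindbrains, hearts and carcasses overlapped. Its peaks recurred at the same places: a peak 1.3 to 2.8 kb before the gene start in all 4 null hindbrains, null heart i1 and both null carcasses, a peak over the last exon in all 9 null libraries, and a peak at about 11.1 to 13.2 kb in 2 null hindbrains, both null hearts and both null carcasses. The window also holds Polr2f and Gm10863. Sox10 is the only short member with bases shared by all 9 null libraries, 600 bp at chr15:78986201-78986800, of which 430 are coding sequence in the last exon; its introns were at 0 in every library. The coding stretch was chosen for display after its values were seen. Shown are 300 bases of it in the reading direction of the gene (chr15:78986436-78986735, NCBIM37, minus strand), with its 8 CpG in capitals; every null library covered all of them and no WT library any.
Sox10 last exon: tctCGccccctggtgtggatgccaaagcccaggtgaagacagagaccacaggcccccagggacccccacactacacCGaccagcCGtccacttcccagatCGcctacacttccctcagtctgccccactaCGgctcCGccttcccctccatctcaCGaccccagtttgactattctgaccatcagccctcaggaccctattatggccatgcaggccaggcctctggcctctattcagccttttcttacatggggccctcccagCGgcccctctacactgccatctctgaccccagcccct

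Sox5 and Sox6, the long SoxD genes of cartilage and neurons, carried most of the peaks. Sox5 (chr6:143776945-144730497, minus strand) spans 953.6 kb and held 117, 115, 132 and 128 peaks in null hindbrains 2A2, O4, Q2 and Z1, over 10.9%, 9.20%, 10.7% and 11.6% of its window. It held 243 and 93 peaks over 18.8% and 6.21% in null hearts i1 and i5, 177 and 210 over 18% and 22.6% in null carcasses i1 and i5, and 118 over 9.70% in the null liver. WT hindbrains 2A8, O3, Q3 and Z3 held 1, 20, 30 and 1 peaks over 0.0514%, 0.955%, 1.74% and 0.0514%, and WT carcasses 44 and 42 over 3.11% and 2.78%. Each null library lay above each WT library of its tissue.

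The log2 difference of null over WT in Sox5 was 4.54 ± 0.90 (SE; limma adjusted p = 0.0015) in hindbrain, 5.29 ± 0.86 (0.00659) in heart and 2.74 ± 0.18 (0.0029) in carcass. Relative to the library's coverage of the genome none of the 3 was called (limma adjusted p = 0.485, 0.408 and 0.981). Relative to the genome, Sox5 was covered at a ratio of 3.02 to 3.44 in null hindbrains, 1.71 and 2.32 in null hearts, 2.99 and 3.35 in null carcasses and 3.20 in the null liver, so both hearts lay below all other null libraries. Hindbrain exceeded heart by 0.65 ± 0.16 (SE; limma adjusted p = 0.0251) and heart lay 0.67 under carcass (adjusted p = 0.0364). Both calls turn on single libraries and settings. The first was lost without null hindbrain O4 (adjusted p = 0.0546), Q2 (0.0521) or Z1 (0.0510) or null heart i5 (0.147), and its sign turned to -0.03 with the percent taken as it is (0.958). It was also lost as peaks per 100 kb (0.259) and with the null liver of i5 added (0.357). The second was lost without null hindbrain Q2 (0.0610) or Z1 (0.0544), null heart i5 (0.146) or null carcass i1 (0.158) or i5 (0.0844), with the gene body alone (0.0588), as peaks per 100 kb (0.328), with the percent as it is (0.296) and with the null liver of i5 added (0.419).

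Sox6 (chr7:122614858-123182258, minus strand) spans 567.4 kb. It held 52, 41, 60 and 54 peaks in null hindbrains 2A2, O4, Q2 and Z1 over 6.95%, 4.85%, 6.67% and 6.71% of its window, 116 and 75 in null hearts i1 and i5 over 15.0% and 7.63%, 94 and 101 in null carcasses i1 and i5 over 14.4% and 16.1%, and 47 in the null liver over 5.28%. Both hearts and both carcasses lay above all hindbrains in percent. On the relative scale Sox6 spanned 1.74 to 2.68 over the 9 null libraries and no tissue comparison was called (limma adjusted p = 0.696, 0.187 and 0.262). Null exceeded WT by 4.45 ± 0.84 in hindbrain (log2, SE; adjusted p = 0.00116), by 6.31 ± 0.62 in heart (0.00162) and by 3.80 ± 0.50 in carcass (0.0118).

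**Figure D4:**
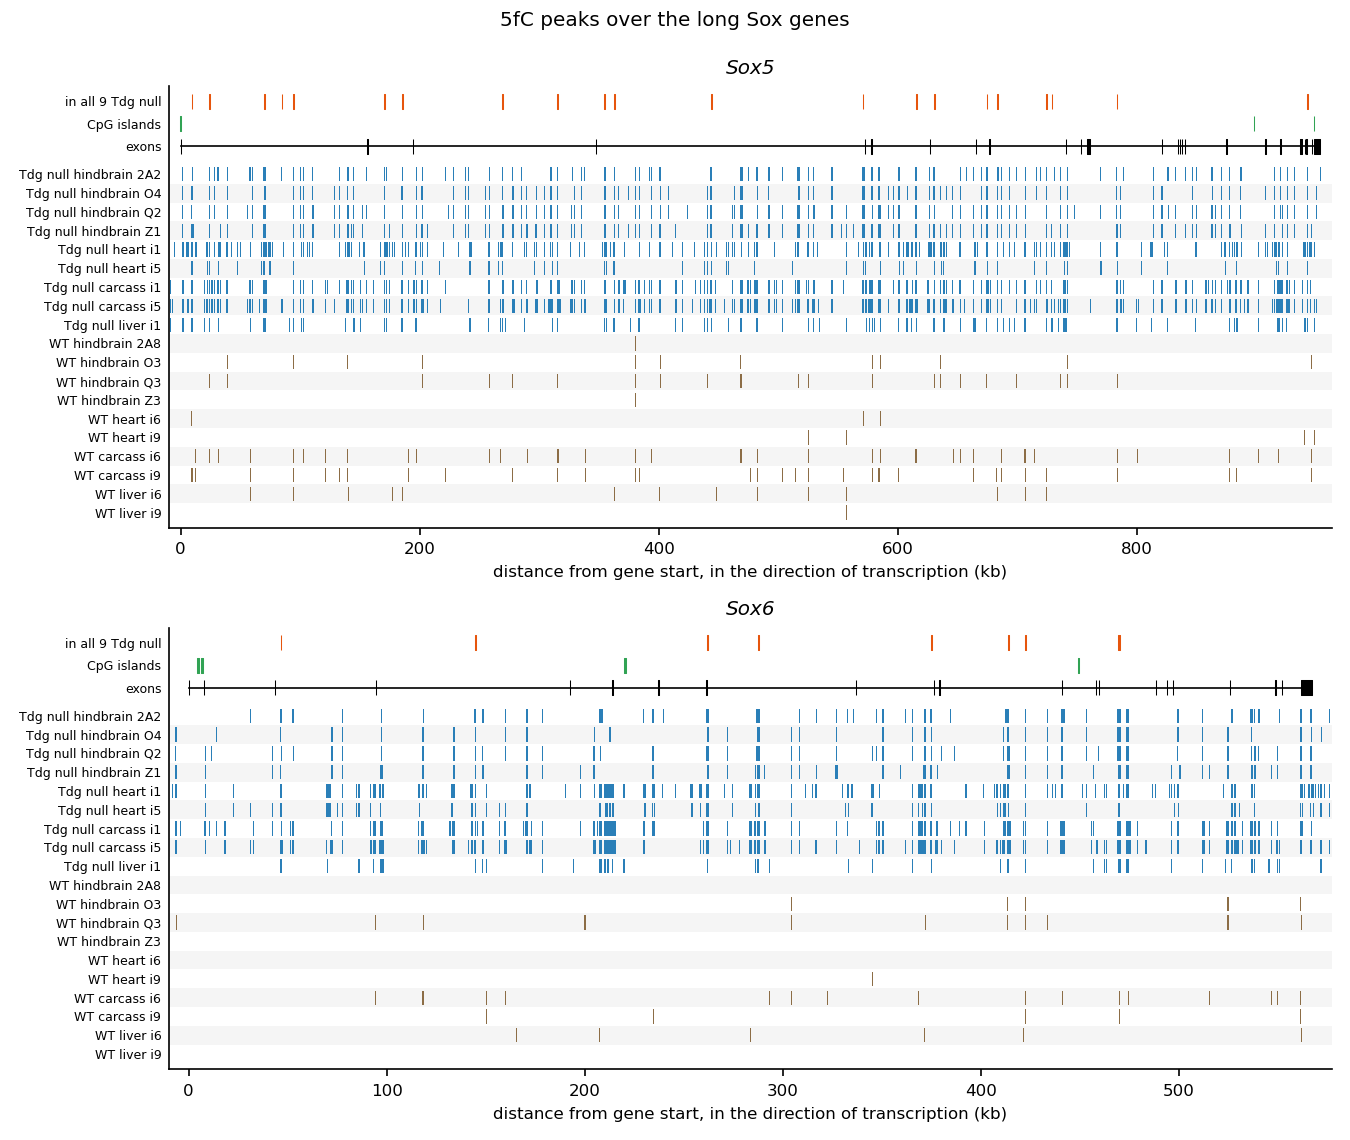
Positions of 5fC peaks along Sox5 and Sox6, as distance from the gene start in the direction of transcription (kb, horizontal axis), with 1 row per library; null peaks are blue, WT peaks brown, exons black, CpG islands green, and orange marks bases under peaks in all 9 Tdg null libraries. The 21 shared stretches of Sox5 and 9 of Sox6 lie along the introns and none lies over a CpG island.

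Of the bases in the 9 windows, 1.07% lay under peaks of all 9 null libraries, against 0.454% over all protein-coding windows. They formed 31 stretches (21 in Sox5, 9 in Sox6 and the 1 in Sox10), with a median length of 600 bp, and 30 of the 31 were intronic. The longest was 1200 bp in Sox6 (chr7:122711701-122712900), 470 kb after the gene start. The next, of 900 bp each, were in Sox5, among them that at chr6:144005201-144006100, 725 kb after its start. Stretches of both null carcasses and no other null library numbered 144 over 2.57% of the windows (1.02% of all windows). Stretches of both null hearts alone numbered 60 over 1.23% (1.67% of all windows), and those of all 4 null hindbrains alone 10 over 0.179% (0.0759%). The groups differ in their number of libraries, so these classes cannot be ranked against each other. The longest heart stretch was 1400 bp in Sox5 (chr6:144655201-144656600), 74.6 kb after the start, and the next, 1100 bp, lay in Sox6 (chr7:122927401-122928500). The longest carcass stretches were 2000 bp (chr6:144703301-144705300) and 1800 bp (chr6:143871301-143873100), both in Sox5 introns. After the Sox1 stretch, none of the hindbrain class was longer than 500 bp, the length of that in Sox5 at chr6:144492101-144492600, 238 kb after the start. None of the stretches of any class overlapped a CpG island.

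The middle 300 bases of the longest stretch of each class are shown for the intronic classes, since they are the sequence that the libraries of a class shared. All are from NCBIM37, plus strand, with CpG in capitals: the stretch of all 9 null libraries in Sox6 (chr7:122712151-122712450, 11 CpG), that of both null hearts in Sox5 (chr6:144655751-144656050, 4 CpG), that of both null carcasses in Sox5 (chr6:144704151-144704450, 2 CpG), and that of WT hindbrains, described next, in Sox5 (chr6:144261551-144261850, 6 CpG).
Sox6, all 9 null libraries: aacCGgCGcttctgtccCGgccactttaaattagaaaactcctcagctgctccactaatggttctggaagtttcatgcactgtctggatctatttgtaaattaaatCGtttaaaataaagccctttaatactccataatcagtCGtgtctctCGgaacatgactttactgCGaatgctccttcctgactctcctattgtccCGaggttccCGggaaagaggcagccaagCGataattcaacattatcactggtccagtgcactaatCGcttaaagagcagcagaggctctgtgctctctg
Sox5, both null hearts: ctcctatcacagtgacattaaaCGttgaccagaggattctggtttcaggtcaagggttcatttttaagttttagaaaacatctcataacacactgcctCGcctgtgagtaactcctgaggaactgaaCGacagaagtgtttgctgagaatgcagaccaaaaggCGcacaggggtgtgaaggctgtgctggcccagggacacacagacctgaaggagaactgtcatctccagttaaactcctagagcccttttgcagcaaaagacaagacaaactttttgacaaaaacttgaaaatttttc
Sox5, both null carcasses: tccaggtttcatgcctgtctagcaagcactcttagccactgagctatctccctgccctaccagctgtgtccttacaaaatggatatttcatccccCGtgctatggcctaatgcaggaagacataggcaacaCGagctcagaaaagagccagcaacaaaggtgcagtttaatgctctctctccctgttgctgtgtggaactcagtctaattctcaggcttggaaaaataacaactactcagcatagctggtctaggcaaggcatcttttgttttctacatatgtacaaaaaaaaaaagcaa
Sox5, WT hindbrains: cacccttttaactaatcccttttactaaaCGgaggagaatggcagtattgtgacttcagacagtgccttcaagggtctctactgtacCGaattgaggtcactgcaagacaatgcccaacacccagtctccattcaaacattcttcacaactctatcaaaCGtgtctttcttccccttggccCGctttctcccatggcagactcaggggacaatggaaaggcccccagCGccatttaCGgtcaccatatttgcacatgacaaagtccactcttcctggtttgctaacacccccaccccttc

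Some WT peaks were shared between hindbrains. Stretches under peaks of at least 2 WT hindbrains numbered 20, of which 14 were in Sox5 and 6 in Sox6, over 0.536% of the windows against 0.156% of all windows. The longest was 800 bp in Sox5 (chr6:144261301-144262100), 469 kb after the gene start, under peaks of 2 WT hindbrains, 3 WT libraries in all and 8 of 9 null libraries. The next were of 600 bp, among them that at chr6:143946601-143947200, with peaks of all 9 null libraries. A 600-bp intronic stretch of Sox5 (chr6:144349701-144350300), 380 kb after the start, was the only 1 of these that peaks of all 4 WT hindbrains overlapped, including the 2 libraries that held no other peak in the 9 windows, and 6 null libraries had peaks over it. In Sox6, 1 stretch of 300 bp (chr7:122981901-122982200) was under peaks of 2 WT hindbrains and of no null library, and it holds no CpG. These last 2 were chosen after their values were seen.

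Most WT peaks in the members lay over null peaks of the same tissue. The counts were 1 of 1, 26 of 28, 38 of 43 and 1 of 1 in WT hindbrains 2A8, O3, Q3 and Z3, where the share over all windows was 89.4%, 92.8%, 89.1% and 84.3%. In WT hearts they were 3 of 3 and 6 of 6 (55.4% and 83.4% over all windows), and in WT carcasses 58 of 65 and 48 of 53 (80.1% and 79.4% over all windows). In WT livers they were 16 of 29 and 3 of 3 (33.2% and 45.6% over all windows), where the null side is 1 library.

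In the long genes Sox5 and Sox6, tiles under more null libraries held more CpG, which was not so over the 7 short members pooled with their islands. In Sox5, 100-bp tiles under no null peak held 0.882 CpG on average, those under 1 to 4 held 1.38, those under 5 to 8 held 1.75 and the 135 under all 9 held 2.16. In Sox6 the same order gave 0.60, 0.954, 1.36 and 1.73. Over the 7 short members, whose islands lay mostly outside peaks, the order gave 2.73, 1.56, 1.84 and 2.0, and tiles under no null peak and outside islands held 1.59. Taken singly, such tiles held 1.44 in Sox8, 1.27 in Sox9, 1.51 in Sox10 and 0.839 in Sox11. These lay below the 1.79, 2.0, 2.12 and 1.42 of tiles under 5 to 8. In Sox1 and Sox4 such tiles held more (2.12 and 1.45 against 1.67 and 1.25), and Sox2 was level (2.23 and 2.25). In the long genes WT peaks followed the same order, over 0.215%, 7.11%, 37.2% and 47.4% of the tiles of Sox5 and 0.456%, 5.22%, 23.3% and 27.3% of those of Sox6. Tiles of 1 gene share libraries and neighbouring sequence and are no replicates, so no test was made.

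**Figure D5:**
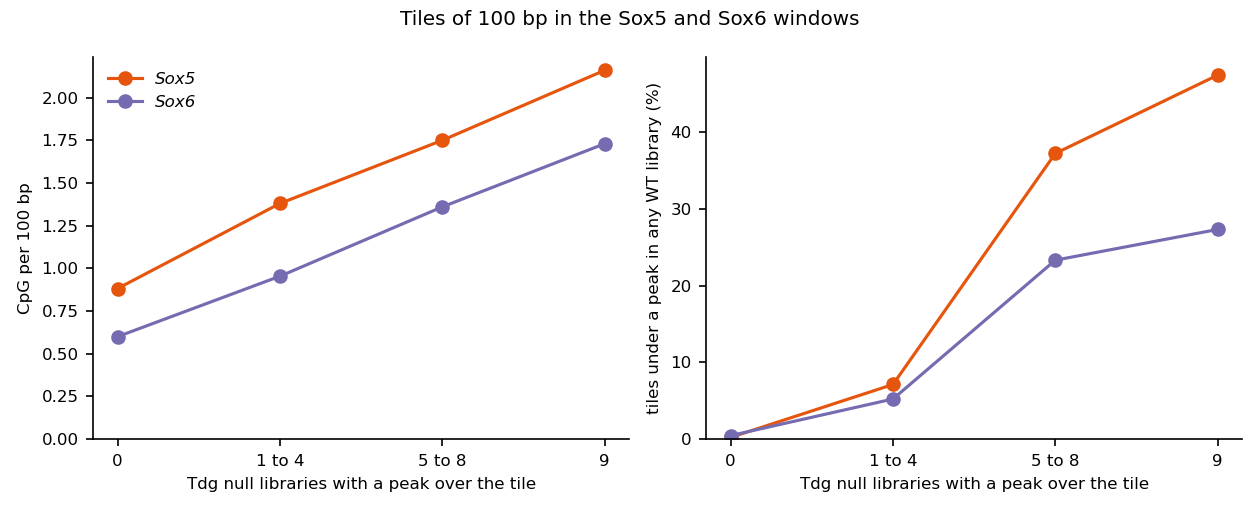
Tiles of 100 bp in the windows of Sox5 (orange) and Sox6 (purple), grouped by how many of the 9 Tdg null libraries had a peak over them (horizontal axis); the left panel gives the mean number of CpG per 100 bp and the right panel the percent of tiles under a peak of any WT library. Both measures go up from the tiles under no null peak (0.882 and 0.60 CpG) to those under all 9 (2.16 and 1.73 CpG).

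Gene starts, most of them covered by CpG islands, were nearly free of peaks. In the region from 1 kb before to 0.5 kb after the gene start, 8 of 9 members had no base under a peak in any of the 9 null libraries, against 59.9% of all windows, and all 9 had none in WT. The exception was Sox4, through a peak whose edge came within 0.72 kb of the start in null hindbrain Q2 and 0.62 kb in null carcass i5. A CpG island covers the start of 7 members, all but Sox6 and Sox10, and all 7 islands were free of null peaks, against 84.7% of 10209 such islands over all windows. In bases, member islands were under peaks for 0 to 4.76% in the null libraries, against 1.66% to 5.35% for islands of all windows. Of the 24 islands in the 9 windows, 21 had no null base. The other 3 were an island in Sox9 2.76 kb after the start (5 null libraries), 1 in Sox6 at 220 kb (4 null libraries) and 1 in Sox5 at 948 kb (3 null libraries). Islands make up 19.3% of the Sox1 window, 14.4% of Sox11 and 12.9% of Sox2, and 0.191% of Sox5 and 0.592% of Sox6.

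Exons differed between members. Sox1, Sox2 and Sox11, with 1 exon each, had no exonic base under a peak in any library. In Sox9 and Sox10 null peaks in exons lay in the last exon, which in Sox10 was covered on average for 60.7% in null hindbrain and heart and 46.3% in null carcass and liver, and in Sox9 for 32.5%, 25.9%, 43.9% and 0 in hindbrain, heart, carcass and liver. The last exon of Sox6, 5878 bp with 301 coding bases, was under peaks in 8 null and 5 WT libraries. Pooled over the 9 genes, exons were covered for 7.04% to 29.7% in the null libraries, against 4.41% to 14.0% over the exons of all protein-coding genes, and introns for 6.64% to 20.2% against 3.49% to 12.1%. The intron values rest on Sox5 and Sox6, since the other 7 genes together hold 9944 bp of intron.

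The rest of the family and of the pathway was taken from lists. Of 10 other Sox genes in the annotation, 5 passed the filter on low coverage in every comparison, and all 5 (Sox7, Sox12, Sox13, Sox15 and Sox30) were higher in null in hindbrain, heart and carcass (limma, against 95.6%, 84.7% and 67.6% of all windows tested). Sox13, a SoxD gene like Sox5 and Sox6, stood at a mean of 14.0% in null hindbrain and 29.1% in null carcass. The other 5 (Sox3, Sox14, Sox17, Sox18 and Sox21) were under the filter, and Sox17, an endoderm and endothelial gene, was at 0 in all null hindbrains, hearts and carcasses. None of the 5 tested differed between null tissues by limma, while 1, 0 and 2 had an unadjusted p under 0.05 in hindbrain against heart, hindbrain against carcass and heart against carcass. These counts too stand without a share over all windows.

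Of 19 genes known as partners or targets of the members, 16 of 16 tested were higher in null hindbrain, 12 of 16 in null heart and 12 of 16 in null carcass (limma), where 95.6%, 84.7% and 67.6% of all windows tested were. Col2a1, the cartilage collagen activated by Sox9, had a mean of 8.28% in null hindbrain, and Tubb3, a neuronal tubulin, 8.25%, and both were called (limma adjusted p = 3.03e-08 and 3.16e-07). The median log2 difference of null over WT hindbrain was 5.18 over these 16 genes and 4.76 over all windows tested. Of 17 tested between null tissues, 3 were higher in hindbrain than heart: Pou3f2, a neural POU factor listed at 0 in both hearts (mean 0.622% in hindbrain, adjusted p = 0.0120), Acan, the cartilage proteoglycan (log2 difference 1.40, adjusted p = 0.0447), and Tead2 (0.94, adjusted p = 0.0479). In plain percent Tead2 went the other way, with means of 11.7% in hindbrain and 12.3% in heart. The other 2 called were lower in hindbrain than heart: Nes, the intermediate filament of neural progenitors (means of 7.57% and 23.7%, log2 difference -0.92, adjusted p = 0.0436), and Mitf, the melanocyte regulator activated by Sox10. Both are named after their values were seen. Over all windows 10.5% were higher in hindbrain and 15.0% higher in heart. Between heart and carcass 2 were higher in heart (20.7% of all windows), among them Erbb3, the neuregulin receptor of Schwann cell precursors, close to 0 in carcass (means of 7.36% in heart and 0.0261% in carcass, adjusted p = 0.0274), and 2 were lower (6.94% of all windows): Pou3f2, at 0 in heart, and Dcx, a microtubule protein of young neurons (-2.32, adjusted p = 0.0415). None differed between hindbrain and carcass by limma, and 5 had an unadjusted p under 0.05, again without a share over all windows.

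The genes whose relative coverage over the 9 null libraries was most like that of the 3 members with the most bases under peaks in all, a measure that favours long windows, were Dgkq (Pearson r = 0.977) and Nnmt (0.976) for Sox5, Mnat1 (0.924) and Pik3r1 (0.911) for Sox6, and Slc35d1 (0.953) and Tmem50b (0.883) for Sox8. These are the highest of 17992 windows over only 9 libraries that share tissues and embryos, and are given as a description.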

How the data were processed

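5fC in sonicated DNA was captured with a cleavable biotinylated probe and sequenced. The authors trimmed reads with Trim Galore, aligned them to NCBIM37 (mm9) with Bowtie2 and ran the MACS caller of SeqMonk on every pull-down separately (cutoff p-value 1e-05, fragments of 200 bp). The values used here are the peak positions that the authors deposited, 1-based on a 100-bp grid and in no other unit. They hold no counts or heights, and sequencing reads were not analysed here, so no depth or counting interval is given. The null liver of embryo i5 was set apart for its 228 peaks; 1 null liver, not named, was set aside for poor quality in the study.

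Windows were scored by the percent of bases under peaks, on 21 chromosomes, with Python 3.11.15, numpy 2.4.6 and pandas 2.3.3, and figures were drawn with matplotlib 3.10.9. The test was limma 3.58.1 (R 4.3.3; eBayes with trend) on log2(percent + 0.1), for windows with a mean of at least 0.5%, with Benjamini-Hochberg adjustment over all windows of a fit and calls at an adjusted p under 0.05. Tissue comparisons used 9 null libraries and subtracted the log2 genome-wide percent of each library. The test was also run on simulated data with independent normal noise. Those data lack shared embryos and windows without peaks, so no conclusion is drawn from that run. In the genotype comparisons p-values measure the spread between embryos. In the tissue comparisons they measure the spread between libraries, since null heart, carcass and liver share embryos i1 and i5. Genotype pairs share litters by the labels. Same-litter hindbrains correlated at 0.0745, 0.0218, -0.0822 and -0.0453 over 15644 windows after subtraction of group means, and the main test has no litter block. CpG islands were called on the genome (at least 200 bp, GC at least 50%, observed over expected CpG above 0.6; 27185 islands). Gene positions are from the GENCODE annotation of NCBIM37. Sox1 was placed by the single exact match of its RefSeq promoter (GRCm38.p6) and its RefSeq length of 4037 bp; it has no entry of that name in the annotation.

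The members, lists and named genes were chosen with earlier results of these data known. Named were the members, by size at most 3 called genes per comparison of the lists of other Sox genes and of partners and targets, and for the 3 most covered members the 2 windows most alike. Alternatives were other pseudocounts, no filter, peaks of at least 600 bp, the gene body alone, peaks per 100 kb, all annotated genes, coverage relative or not, litter as a block, the second null liver, the exact test and each library left out.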

Additional observations from a re-analysis of the deposited data

Results flagged for a closer look

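In 12 groups of 4 hindbrains with values above 0, each highest and lowest library was compared with its nearest neighbour, and 2 libraries stood far from the other 3 of their group. In WT hindbrain Q3 4.09% of the Sox11 window was under a peak, with the other 3 WT hindbrains at 0, so that any value above 0 would have stood apart. Null hindbrain O4 covered 4.85% of the Sox6 window, below the 6.67% to 6.95% of the other 3 null hindbrains; in groups with 4 measured values chance gives such a gap in about 1 of 20.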

How the results depend on the processing

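Of 29 member calls, 29 held with all annotated genes, no filter, a pseudocount of 0.01 or litter as a replicate block, which added 1 call, Sox9 in null heart against null carcass (adjusted p = 0.0494), and changed no other. Relative to the library's coverage of the genome, windows called fell to 4813 from 14956 in hindbrain, 8035 from 14462 in heart and 5571 from 11083 in carcass, members called were 5 in hindbrain and 3 in carcass, and the differences of Sox4 in hindbrain (-0.16) and Sox5 in carcass (-0.0066) reversed. For Sox4 that sign comes from the pseudocount: all 4 WT hindbrains were at 0 and the null mean ratio to the genome was 0.704. With the percent as it is, Sox5 in hindbrain against heart reversed to -0.034, members called were 2 in that comparison and 1 in heart against carcass, and windows called were 422 in hindbrain against carcass (1060 otherwise) and 1052 in heart against carcass (4967 otherwise). The gene body alone left 4 members in hindbrain, 4 in heart, 1 in hindbrain against heart and 0 in heart against carcass, with 652 and 3135 windows called in hindbrain and heart against carcass; Sox1, Sox2 and Sox11 gave no value there, being at 0. Peaks per 100 kb left 1 member in hindbrain against heart (2749 windows; 4599 otherwise) and 1 in heart against carcass (2295), with 692 windows in hindbrain against carcass. The second null liver left 1 member in hindbrain against heart (1327 windows) and 0 in heart against carcass (1510), with 142 windows in hindbrain against carcass. A pseudocount of 1 gave 2 members, Sox1 and Sox4, and 1896 windows in hindbrain against carcass, ended the genotype call of Sox2 in carcass (adjusted p = 0.0534) and added those of Sox1 (0.0211) and Sox9 (0.0396) in heart against carcass, and peaks of at least 600 bp ended 6 calls: Sox4 and Sox11 in hindbrain (adjusted p = 0.137 and 0.149), Sox11 in heart (0.339), Sox2 and Sox4 in carcass (0.379 and 0.137) and Sox2 in heart against carcass (0.360), leaving 1 member there. The causes were not tested.

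With 1 library left out, members called ran from 9 to 9 in hindbrain, 5 to 7 in heart, 5 to 8 in carcass, 2 to 4 in hindbrain against heart (2 without null hindbrain O4 or Q2 or null heart i5), 0 to 1 in hindbrain against carcass (1 without either null heart) and 0 to 3 in heart against carcass (0 without null carcass i1, 1 without null hindbrain Q2, null heart i5 or null carcass i5). Windows called ran from 14799 to 15077, 11914 to 14066, 7826 to 11923, 1790 to 4632, 550 to 1201 and 1943 to 5075 in the same order, lowest without null hindbrain Q2, null heart i1, null carcass i5, null heart i5, null hindbrain Q2 and null heart i5. A lone library was assumed to vary like the other groups.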
